A study of Mus musculus with 12 samples.

Results

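The serpin genes other than the Serpina3 genes were examined in mouse gingival tissue, the gum around the teeth, by RNA-seq. Members were taken as every row of the deposited count table whose symbol in GENCODE mouse release M21 (GRCm38) begins with Serpin but not with Serpina3. The table held 51 such genes among 21965, and 10 Serpina3 genes were left out by the rule. The 12 libraries formed 4 groups of 3: C57BL/6 (wildtype, WT) ligated, Cybb-/- ligated, WT naive and Cybb-/- naive, the Cybb-/- mice being called CybbKO. Ligated mice carried a silk thread tied around an upper molar for 8 days, which lets bacteria collect and inflames the gum, and naive mice had none. All mice were less than 12 weeks old, and the submitters described 3 age- and sex-matched mice per group. Cybb encodes the catalytic subunit of the Nox2 NADPH oxidase, the phagocyte enzyme that makes superoxide, and the deletion is carried by every cell of the CybbKO mice, not by neutrophils alone.

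Serpins are protease inhibitors with a shared fold. A serpin offers a reactive loop as bait, and a protease that cuts the loop is trapped in a covalent complex, so that each serpin molecule is spent once. Members of clade B stay mostly inside cells and guard leukocytes and keratinocytes against their own granule and lysosomal proteases, secreted members control plasminogen activation, clotting and complement, and a few have lost the inhibitory role, such as the collagen chaperone Serpinh1 and the hormone carriers. In the gum the balance between proteases from neutrophils and their inhibitors has long been studied in periodontitis.

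The libraries held 27958819 to 42613423 counts, of which the 51 genes took 0.665% to 1.18%. Cybb was higher in the libraries labelled CybbKO, at 41.6 to 63.7 CPM (counts scaled to a common library size by edgeR's TMM factors), than in WT, at 4.19 to 15.2 CPM, so counts on Cybb separated the genotypes but did not show a lost transcript. Marker sums placed the tissue as labelled, with 14 oral keratins and cornified envelope genes adding up to 79503 to 158298 CPM. WT naive replicate 3 stood apart, with 29504 CPM of salivary gland genes against 65.4 to 5169 in the other libraries, and it had the lowest serpin share. CybbKO ligated replicate 2 also stood apart, with 4585 CPM over 8 fibroblast genes against 6291 to 12382 in the other ligated libraries. Because this is bulk tissue, fewer cells of a type and less RNA per cell cannot be told apart.

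The serpin transcripts of the gum were mostly those of the keratinocyte gene cluster on chromosome 1. Per kb of exon, Serpinb3a had the highest level, at 1082 to 2746 CPM per kb over the 12 libraries, followed by Serpinb12 at 853 to 1516 and Serpinb5 at 312 to 484. These ranges overlapped between Serpinb3a and Serpinb12, and the range of Serpinb5 lay below both. Serpinb3b at 125 to 213 CPM per kb, Serpinb11 at 102 to 147 and Serpinb3c at 49.2 to 211 came next, and their ranges overlapped. Serpinb3a and its neighbours are the mouse relatives of the human squamous cell carcinoma antigens, which inhibit lysosomal cysteine and serine proteases, Serpinb5 (maspin) is an epithelial serpin without a known protease target, and Serpinb12 is an epithelial inhibitor of trypsin-like proteases. Serpinb3a, Serpinb12 and Serpinb5 together took 76.6% of all serpin counts.

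**Figure D1:**
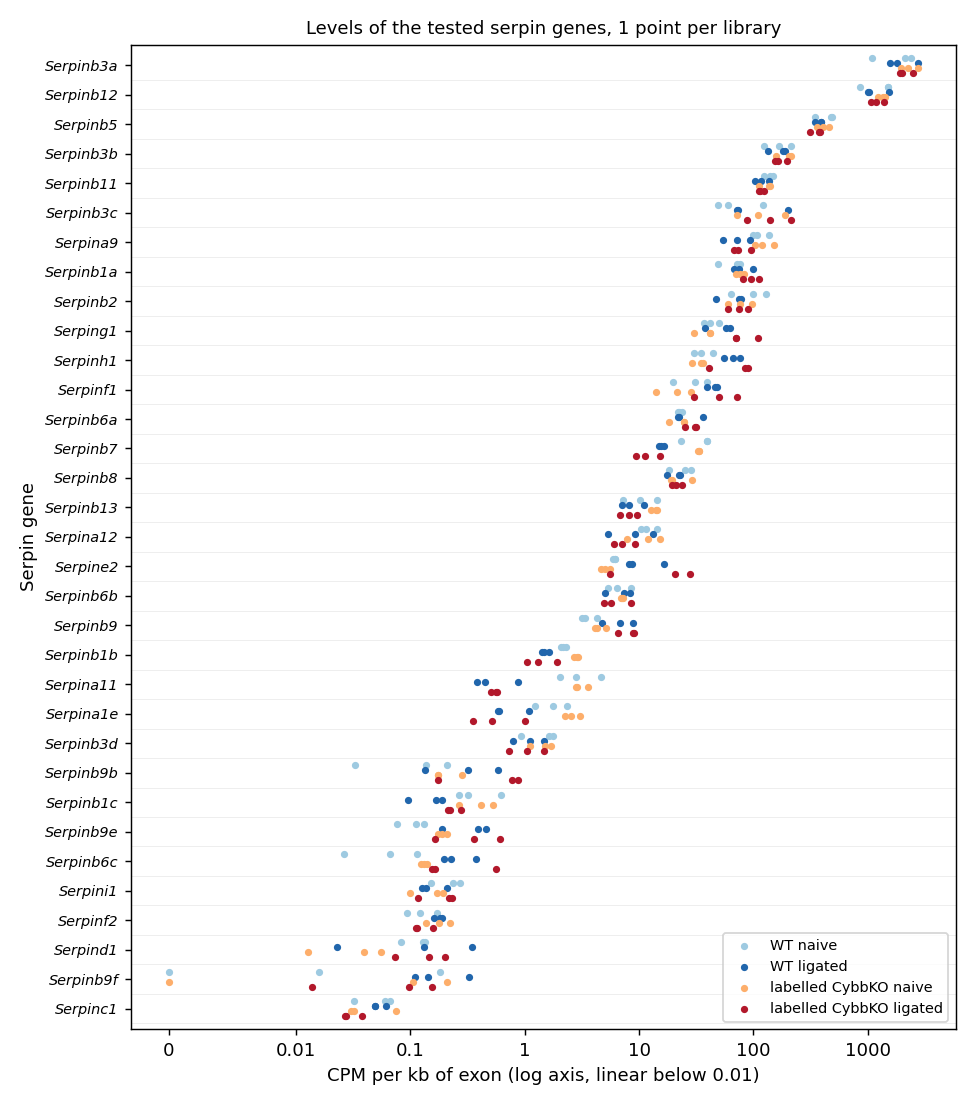
CPM per kb of exon on a log axis (linear below 0.01) for 33 of the 34 serpin genes that passed the filter on low counts, 1 point per library, coloured by group and ordered by mean level. Levels ran from Serpinb3a at up to 2746 CPM per kb down to Serpinc1, the lowest by mean, at 0.0267 to 0.0747 CPM per kb.

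Most serpin genes lie in 3 clusters. The 11 genes at chr1:106861173-107610484 (Serpinb5, Serpinb12, Serpinb13, the Serpinb3 genes, Serpinb11, Serpinb7, Serpinb2 and Serpinb8) were all tested and held 87.8% of the serpin counts. The 15 genes at chr13:32842092-34002794 (the Serpinb1, Serpinb6 and Serpinb9 families) held 3.67%, and 10 of them were tested. The 13 genes at chr12:103614786-104106137 (Serpina1, Serpina9, Serpina11, Serpina12 and others) held 3.94%, and 4 were tested. Genes of the Serpina1, Serpinb1, Serpinb3, Serpinb6 and Serpinb9 families have near-identical copies. Reads may have been divided among these or left out in counting, so their single-gene values are uncertain.

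Of the 51 genes, 34 passed the filter, which asks for about 0.275 CPM in at least 3 libraries. The other 17 never exceeded 0.527 CPM. Among these, Serpini2, Serpinb6d, Serpina1a and Serpina16 had no count in any library. This allows up to 0.107 CPM in the shallowest library, or more where reads matching several copies were left out in counting. Serpina1b, Serpina1c, Serpina1d, Serpina1f, Serpina5 (protein C inhibitor), Serpina6 (corticosteroid-binding globulin), Serpina7 (thyroxine-binding globulin), Serpina10, Serpinb6e, Serpinb9c, Serpinb9d, Serpinb9g and Serpine3 had counts in at least 1 library. Serpina6 and Serpina7 are known as products of the liver.

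The ligature comparison asked which serpin genes differ between ligated and naive gum. Averaged over the genotypes, 8 genes rose and 6 fell (adjusted p under 0.05, edgeR's quasi-likelihood test with Benjamini-Hochberg adjustment over 15046 genes), where 14.7% of all genes tested rose and 9.66% fell. The genes that rose were Serpinb9, Serpinh1, Serping1, Serpine2, Serpinf1, Serpinb9e, Serpinb6c and Serpinb9b. Those that fell were Serpina11, Serpinb7, Serpina1e, Serpinb1b, Serpina9 and Serpinb1c. The median log2 fold change of the 34 genes was -0.07, beside -0.03 over all genes tested. Leaving out any of the 12 libraries in turn gave 11 to 18 called genes, with 18 without WT ligated replicate 1, 15 without WT naive replicate 3 and 17 without CybbKO ligated replicate 2.

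Within WT, 0 of the 34 genes rose in edgeR and 2 fell, Serpina11 and Serpinb7, where 2.31% of all genes rose and 0.884% fell. DESeq2 was run on all genes with any count, 47 serpin genes among them, and called 5 serpins in the same comparison. Serpina11, Serpinb7 and Serpina1e were lower there, and Serpinb9 and Serpinh1 were higher. In edgeR 10 genes had an unadjusted p under 0.05, as had 19.9% of all genes tested. The WT count was 1 without WT ligated replicate 2, WT ligated replicate 3 or WT naive replicate 1, and 0 without WT naive replicate 2. In the libraries labelled CybbKO 6 genes rose (Serpinb9, Serpine2, Serpinf1, Serping1 and Serpinh1 among them) and 4 fell (Serpina11, Serpina1e, Serpinb7 and Serpinb1b), where 9.95% of all genes rose and 3.04% fell. That count was 4 without CybbKO ligated replicate 1 or CybbKO ligated replicate 3, 5 without CybbKO naive replicate 2 and 6 without CybbKO naive replicate 3. The calls of Serpina11, Serpinb7, Serpina1e and Serping1 held in 6 of these 6 fits, that of Serpinb1b in 4 and that of Serpinh1 in 3. The 2 ligature comparisons within genotypes share no library, and their values are given side by side below, while the test of the difference between them is given with the genotype comparisons.

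**Figure D2:**
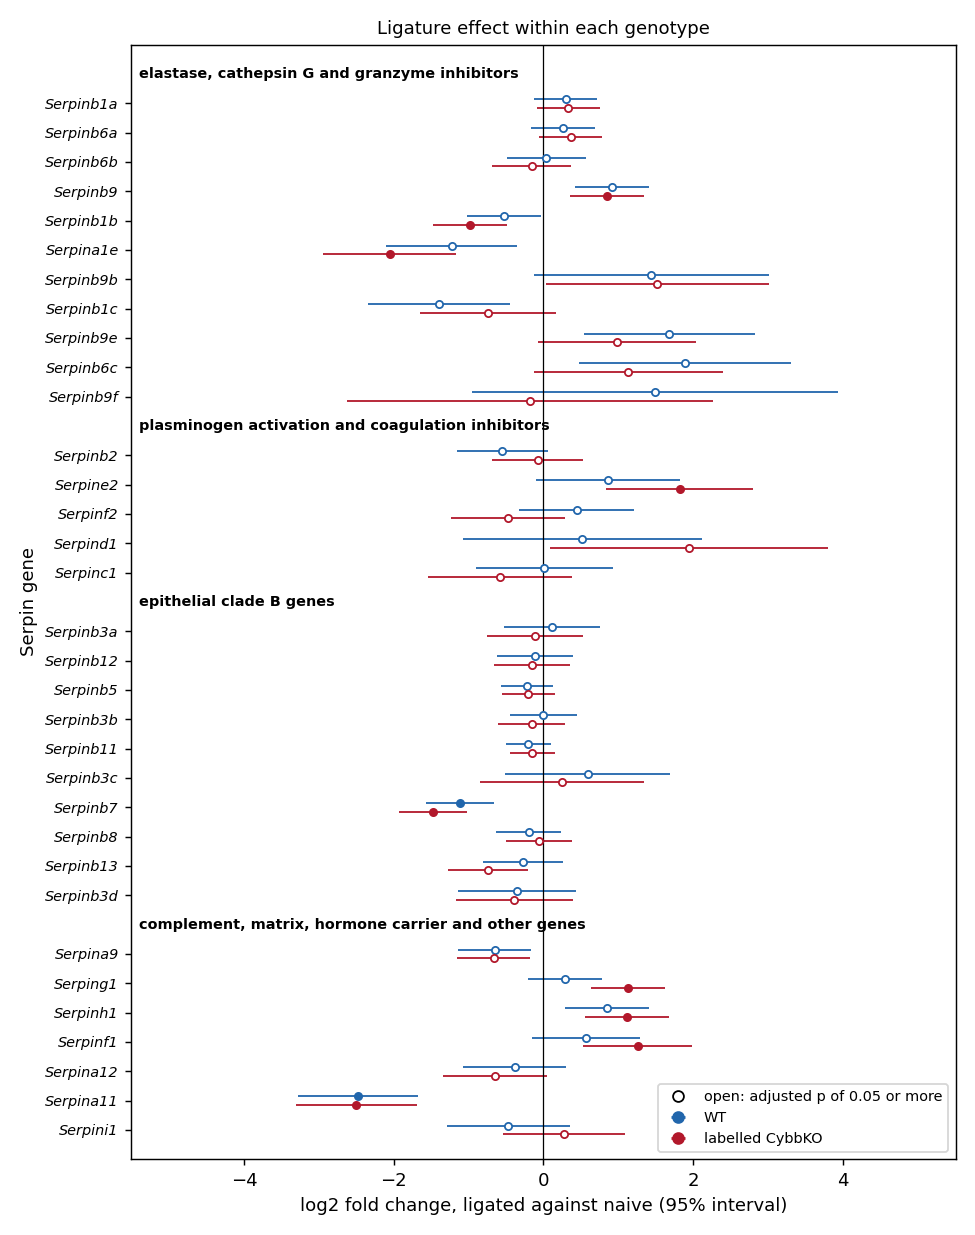
Log2 fold change of ligated against naive tissue within WT (blue) and within the libraries labelled CybbKO (red) for 33 of the 34 tested serpin genes, by role, with 95% intervals and filled points where adjusted p was under 0.05. Serpina11 and Serpinb7 lie left of 0 in both genotypes, and the abundant epithelial genes Serpinb3a, Serpinb12 and Serpinb5 lie near 0.

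In naive against ligated gum, 6 ligated libraries all lay below the 6 naive libraries for 5 genes, Serpina11, Serpinb7, Serpina1e, Serpinb1b and Serpina9, beside 4.31% of all genes tested. All 6 lay above for 1 gene, Serpinb6c, beside 6.73%, but Serpinb6c reached the filter level only in ligated libraries and so entered the test through the group where it was high. The sixth called fall, Serpinb1c, overlapped, and 7 of the 8 called rises had at least 1 ligated library within the naive range.

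The 250 bases before the RefSeq start (GRCm38.p6) are shown for the 2 rising and the 2 falling genes with the smallest p among those in the RefSeq promoter table, which held 44 of the 51 genes and 12 of the 14 called ones. Capitals mark matches to any of 7 motifs searched on both strands: the TATA box, searched as TATAAA, the CCAAT box, searched by those 5 letters, the GC box, searched as GGGCGG, the AP-1 motif, searched as TGANTCA, the STAT motif, searched as TTCNNNGAA, the heat shock element core, searched as GAANNTTC, and the E-box, searched as CACGTG.
Serpinb9, higher after ligature, chr13:33004291-33004540, plus strand: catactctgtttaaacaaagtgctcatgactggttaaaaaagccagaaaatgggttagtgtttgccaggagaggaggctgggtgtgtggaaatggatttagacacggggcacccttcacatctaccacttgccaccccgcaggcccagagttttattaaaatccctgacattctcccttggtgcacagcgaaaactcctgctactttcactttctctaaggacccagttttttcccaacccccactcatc
Serpinh1, higher after ligature, chr7:99353240-99353489, minus strand: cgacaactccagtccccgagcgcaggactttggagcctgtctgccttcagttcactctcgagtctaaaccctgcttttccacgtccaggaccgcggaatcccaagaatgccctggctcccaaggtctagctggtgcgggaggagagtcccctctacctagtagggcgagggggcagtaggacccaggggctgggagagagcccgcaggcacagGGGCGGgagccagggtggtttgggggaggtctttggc
Serpina11, lower after ligature, chr12:103989958-103990207, minus strand: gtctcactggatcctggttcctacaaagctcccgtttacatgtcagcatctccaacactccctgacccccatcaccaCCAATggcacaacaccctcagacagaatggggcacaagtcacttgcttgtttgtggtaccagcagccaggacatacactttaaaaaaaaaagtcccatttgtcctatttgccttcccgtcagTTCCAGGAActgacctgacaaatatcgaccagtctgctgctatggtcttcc
Serpinb7, lower after ligature, chr1:107422439-107422688, plus strand: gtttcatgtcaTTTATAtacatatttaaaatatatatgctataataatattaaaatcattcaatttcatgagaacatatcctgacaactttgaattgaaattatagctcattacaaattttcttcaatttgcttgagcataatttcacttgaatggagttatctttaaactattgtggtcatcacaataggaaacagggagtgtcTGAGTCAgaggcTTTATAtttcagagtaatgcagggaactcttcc
For Serpinb9 and Serpinb7 the RefSeq start lies inside the GENCODE gene span given below, so these windows precede only that start. The Serpinh1 window was richest in G and C, at 63.6%, and held a GC box starting 37 bases before the start. The Serpinb7 window held 29.2% G and C, with 2 matches to the TATA box on the minus strand, starting 33 and 239 bases before the start, and an AP-1 match starting 45 bases before it. The Serpina11 window held a CCAAT match 173 bases and a STAT match 51 bases before the start, and the Serpinb9 window held none of the 7 motifs.

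Across all 27025 promoters of this length, 12.97% held the TATA box, 34.5% the CCAAT box, 32.9% the GC box, 6.87% the AP-1 motif, 7.18% the STAT motif, 6.78% the heat shock element core and 6.05% the E-box. Among the 44 serpin windows, 9 held the TATA box, 14 the CCAAT box, 7 the GC box, 10 the AP-1 motif, 4 the STAT motif, 2 the heat shock element core and 0 the E-box. Of the 7 rising genes with a window, 3 held the GC box (Serpine2, Serpinh1 and Serpinb6c), and 0 of the 5 falling genes did. Of the 5 falling genes 3 held the CCAAT box (Serpina1e, Serpina11 and Serpinb1b), as did 1 of the 7 rising genes, Serpinf1. Many serpin genes are neighbours that arose by duplication, and how alike their windows are was not tested.

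Among the inhibitors of elastase, cathepsin G and granzymes, 11 of 21 genes were tested, and averaged over the genotypes 4 rose and 3 fell, where 14.7% and 9.66% of all genes tested did. Serpinb9 (ENSMUSG00000045827, chr13:33003250-33017957), the granzyme B inhibitor that protects cytotoxic lymphocytes from their own granules, had 15.05, 11.7 and 11.04 CPM in WT naive replicates 1 to 3 and 16.5, 23.7 and 31.1 CPM in WT ligated. It had 14.8, 14.4 and 17.8 CPM in the naive libraries labelled CybbKO and 31.5, 22.7 and 30.7 CPM in the ligated ones. Ligated libraries lay above naive ones within each genotype, and only the lowest WT ligated library fell within the range of the naive CybbKO libraries. The averaged change was 1.84-fold (log2 0.88, standard error 0.16, edgeR adjusted p = 0.00275). The log2 fold change was 0.91 in WT (edgeR adjusted p = 0.0531, DESeq2 adjusted p = 0.00586) and 0.85 in the libraries labelled CybbKO (edgeR adjusted p = 0.0295). The averaged call held in 12 of 12 leave-one-out fits, whereas the CybbKO call held in 1 of 6, the fit without CybbKO ligated replicate 2, with adjusted p up to 0.115 in the others. Gzmb itself, its target, had a mean of 0.0916 CPM in WT naive and 0.448 in WT ligated, and 0.613 and 1.61 in the naive and ligated libraries labelled CybbKO. Its rise averaged over the genotypes was 1.84 on the log2 scale (standard error 0.43, edgeR adjusted p = 0.01003), and it was not called within either genotype. The 7 T and NK cell markers, Gzmb among them, summed to 8.14 to 19.3 CPM in ligated and 3.28 to 11.96 CPM in naive libraries. Averaged over the genotypes 3 of the 6 tested were called higher (Cd3e, Cd3g and Gzmb), beside 14.7% of all genes tested. Within either genotype 0 were called, where 2.31% of all genes rose in WT and 9.95% in the libraries labelled CybbKO. The part of these cells in the rise of Serpinb9 was not tested.

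The other Serpinb9 and Serpinb6 genes that rose were rare transcripts. Serpinb9b (ENSMUSG00000021403, chr13:33027416-33041884) had 0.457, 0.696 and 0.109 CPM in WT naive, 0.448, 1.07 and 1.97 in WT ligated, 0.952, 0.583 and 0.580 in the naive libraries labelled CybbKO and 2.90, 0.588 and 2.58 in the ligated ones. Serpinb9e (ENSMUSG00000062342, chr13:33249612-33260850) had 0.213, 0.253 and 0.146 CPM in WT naive, 0.747, 0.366 and 0.882 in WT ligated, 0.404, 0.333 and 0.366 in the naive libraries labelled CybbKO and 0.313, 0.695 and 1.16 in the ligated ones. In each of these genes 1 ligated library labelled CybbKO stayed at the naive level, replicate 2 for Serpinb9b and replicate 1 for Serpinb9e, and WT ligated replicate 1 also lay within the WT naive range of Serpinb9b. Serpinb6c (ENSMUSG00000052180, chr13:33879816-33905708) had 0.0914, 0.158 and 0.0364 CPM in WT naive, 0.274, 0.314 and 0.519 in WT ligated, 0.173, 0.194 and 0.183 in the naive libraries labelled CybbKO and 0.783, 0.214 and 0.228 in the ligated ones. Serpinb6c reached the filter level in 4 libraries, all ligated, so it could be tested only where it was higher in ligated tissue. The averaged log2 fold changes were 1.48 (standard error 0.49, edgeR adjusted p = 0.0480) for Serpinb9b, 1.33 (standard error 0.35, adjusted p = 0.0187) for Serpinb9e and 1.51 (standard error 0.44, adjusted p = 0.0264) for Serpinb6c. None of these 3 calls held in every leave-one-out fit: 3 of 12 kept the Serpinb9b call, 11 of 12 that of Serpinb9e and 7 of 12 that of Serpinb6c. The Serpinb9b call also missed the threshold with the replicate number as a block (adjusted p = 0.101), as did Serpinb6c (adjusted p = 0.0508).

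In the same role group, which was set by gene family, 3 genes fell, and their own protease targets were not tested. Serpina1e (ENSMUSG00000072849, chr12:103946931-103958975), of the alpha-1 antitrypsin family whose classical target is neutrophil elastase, had 3.78, 2.85 and 1.97 CPM in WT naive and 1.77, 0.942 and 0.960 in WT ligated. In the libraries labelled CybbKO it had 4.96, 4.08 and 3.63 CPM in naive and 0.574, 1.63 and 0.844 in ligated tissue. The groups did not overlap in either genotype, and the averaged fall was 3.12-fold (log2 -1.64, standard error 0.29, edgeR adjusted p = 0.00220).

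Serpinb1b (ENSMUSG00000051029, chr13:33078575-33094380), a paralog of the neutrophil elastase inhibitor Serpinb1a, had 3.96, 4.43 and 4.16 CPM in WT naive and 2.74, 3.14 and 2.83 in WT ligated. In the libraries labelled CybbKO it had 5.60, 5.19 and 5.55 CPM in naive and 2.53, 3.69 and 2.03 in ligated tissue. The averaged fall was 1.69-fold (log2 -0.76, standard error 0.16, edgeR adjusted p = 0.00603). Serpinb1c (ENSMUSG00000079049, chr13:32881434-32898211) had 0.518, 1.01 and 0.437 CPM in WT naive, 0.274, 0.157 and 0.311 in WT ligated, 0.433, 0.860 and 0.671 in the naive libraries labelled CybbKO and 0.366, 0.348 and 0.456 in the ligated ones. Its ligated range reached into the naive range only in the libraries labelled CybbKO, and the averaged log2 fold change was -1.07 (standard error 0.30, edgeR adjusted p = 0.0235), called in 8 of 12 leave-one-out fits.

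The most abundant inhibitors of this role did not pass the threshold. Serpinb1a, which blocks elastase, proteinase 3 and cathepsin G inside neutrophils and monocytes, had a mean of 151 ± 34.0 CPM (SD, n = 3) in WT naive and 185 ± 38.7 in WT ligated, and 175 ± 14.1 and 221 ± 34.9 in the naive and ligated libraries labelled CybbKO. Its averaged log2 fold change was 0.31 (95% interval 0.02 to 0.61, edgeR adjusted p = 0.117). Serpinb6a, an intracellular cathepsin G inhibitor, had an averaged log2 fold change of 0.31 (95% interval 0.01 to 0.61, adjusted p = 0.124). Neutrophil marker sums rose from 383 to 935 CPM in naive to 1352 to 11674 CPM in ligated libraries, and 10 of 10 neutrophil genes were called higher averaged over the genotypes, beside 14.7% of all genes tested. Within WT 1 of the 10 was called and within the libraries labelled CybbKO 10 were, beside 2.31% and 9.95% of all genes tested. Ly6g reached the filter level only in ligated libraries. The part of neutrophils in the Serpinb1a and Serpinb6a values was not tested. Serpinb6b had a log2 fold change of -0.06 and Serpinb9f of 0.65, neither past the threshold.

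Among the inhibitors of plasminogen activation and coagulation, 6 of 9 genes were tested, and averaged over the genotypes 1 rose, Serpine2, and 0 fell. That share, 16.7%, was near the 14.7% of all genes tested that rose. Serpine2 (ENSMUSG00000026249, chr1:79794197-79861180), or protease nexin 1, blocks thrombin and plasminogen activators at cell surfaces. It had 50.9, 51.3 and 48.8 CPM in WT naive, within a narrow range, and 67.5, 71.4 and 136 CPM in WT ligated. In the libraries labelled CybbKO it had 46.3, 38.2 and 41.8 CPM in naive and 229, 45.8 and 172 CPM in ligated tissue. Every WT ligated library lay above every WT naive one, while CybbKO ligated replicate 2 stayed within the naive range of its genotype. The averaged rise was 2.54-fold (log2 1.34, standard error 0.31, edgeR adjusted p = 0.00991), and it was called in 12 of 12 leave-one-out fits. The call within the libraries labelled CybbKO held in 1 of 6, the fit without CybbKO ligated replicate 2.

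Serpinb2, an inhibitor of urokinase found in keratinocytes and macrophages, was the most abundant of this role, with 228 ± 77.7 CPM (SD, n = 3) in WT naive and 156 ± 39.2 in WT ligated, and 184 ± 44.1 and 174 ± 34.5 in the naive and ligated libraries labelled CybbKO. Its averaged log2 fold change was -0.31 (95% interval -0.74 to 0.11), not past the threshold. The largely hepatic Serpinc1 (antithrombin), Serpind1 (heparin cofactor II) and Serpinf2 (alpha-2 antiplasmin) stayed at or below 0.752 CPM in every library and were not called in any comparison.

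The epithelial clade B genes included the most abundant serpins. All 10 were tested, and averaged over the genotypes 1 was called, Serpinb7, which fell, a share near the 9.66% of all genes tested that fell. The 6 most abundant gave averaged log2 fold changes of 0.00 for Serpinb3a (95% interval -0.45 to 0.46), -0.13 for Serpinb12 (-0.49 to 0.23), -0.21 for Serpinb5 (-0.46 to 0.04), -0.08 for Serpinb3b (-0.40 to 0.24), -0.18 for Serpinb11 (-0.39 to 0.04) and 0.42 for Serpinb3c (-0.36 to 1.19). None passed the threshold, and the interval of Serpinb3c was the widest of the 6.

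The values of the abundant genes overlapped between the groups. Serpinb3a had 3898, 3471 and 1765 CPM in WT naive, 4443, 2937 and 2523 in WT ligated, 3657, 4479 and 3149 in the naive libraries labelled CybbKO and 3232, 3137 and 4083 in the ligated ones. Serpinb12 had 3714, 3750 and 2131 CPM in WT naive, 3787, 2577 and 2490 in WT ligated, 3541, 3398 and 3073 in the naive libraries labelled CybbKO and 2673, 2924 and 3428 in the ligated ones. The lowest value of each was in WT naive replicate 3, the library with the salivary gland genes. Serpinb5 had 1322, 1332 and 956 CPM in WT naive, 1079, 1076 and 947 in WT ligated, 1115, 1259 and 987 in the naive libraries labelled CybbKO and 1023, 857 and 1040 in the ligated ones. Its ligated and naive values overlapped, as did those of Serpinb3b (211 to 359 CPM over the 12 libraries), Serpinb11 (223 to 321 CPM) and Serpinb3c (81.6 to 351 CPM).

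Serpinb7 (ENSMUSG00000067001, chr1:107399655-107452689), a keratinocyte serpin whose loss in humans causes a palmoplantar keratosis, had 76.4, 76.6 and 45.7 CPM in WT naive and 29.2, 32.1 and 30.5 in WT ligated. It had 65.1, 63.6 and 65.4 CPM in the naive libraries labelled CybbKO and 22.01, 29.6 and 18.3 in the ligated ones. Every ligated library lay below every naive one, with WT naive replicate 3 the lowest naive library. The averaged fall was 2.45-fold (log2 -1.29, standard error 0.15, edgeR adjusted p = 0.000277), with log2 -1.11 in WT (adjusted p = 0.0211) and -1.47 in the libraries labelled CybbKO (adjusted p = 0.00229). The averaged call held in 12 of 12 leave-one-out fits and the WT call in 1 of 6. Serpinb13 (headpin), an inhibitor of cathepsins K and L in stratified epithelium, gave -0.51 on the log2 scale (standard error 0.17), missed the threshold in edgeR (adjusted p = 0.0513), and DESeq2 gave it an adjusted p of 0.0193. Oral epithelium genes summed to 79503 to 132952 CPM in ligated and 105563 to 158298 CPM in naive libraries, and 6 of the 14 were called lower averaged over the genotypes, 1 within WT and 3 within the libraries labelled CybbKO, beside 9.66%, 0.884% and 3.04% of all genes tested. The part of epithelial content in the fall of Serpinb7 was not tested. Its neighbours Serpinb11 and Serpinb2, on either side of it on the chromosome, gave -0.18 and -0.31 on the log2 scale.

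**Figure D3:**
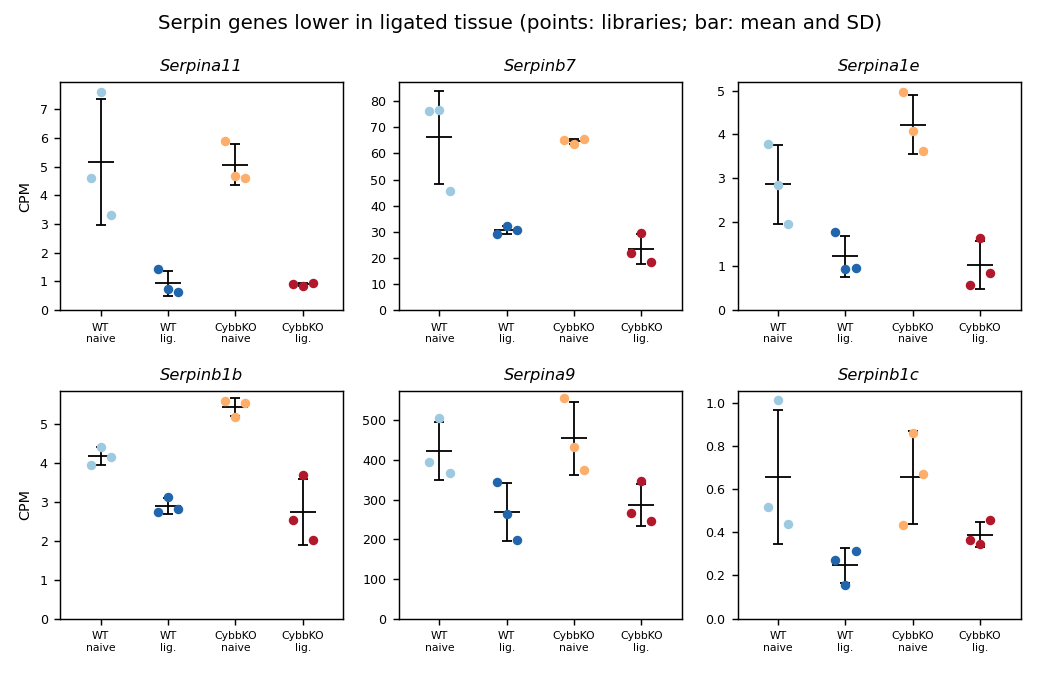
CPM in each library for the 6 serpin genes that were lower in ligated tissue, by group, with the mean and SD of 3 libraries. For Serpina11 and Serpinb7 all 6 ligated libraries lie below all 6 naive ones, at up to 1.42 and 32.1 CPM.

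Among the complement, matrix, hormone carrier and other genes, 7 of 11 were tested, and averaged over the genotypes 3 rose and 2 fell, beside 14.7% and 9.66% of all genes tested. Serpinh1 (ENSMUSG00000070436, chr7:99345376-99353239), or HSP47, the collagen chaperone of the endoplasmic reticulum, had 74.3, 85.2 and 108 CPM in WT naive and 135, 161 and 185 in WT ligated. It had 84.1, 70.2 and 88.1 CPM in the naive libraries labelled CybbKO and 218, 100 and 206 in the ligated ones. Ligated libraries lay above naive ones within each genotype, and CybbKO ligated replicate 2 was the lowest of the ligated libraries. The averaged rise was 1.97-fold (log2 0.98, standard error 0.18, edgeR adjusted p = 0.00303). The 10 collagen chains listed beside it all rose averaged over the genotypes, 7 within WT and 10 within the libraries labelled CybbKO. Of all genes tested, 14.7%, 2.31% and 9.95% rose in these comparisons. The median log2 fold change of the chains was 2.15 averaged over the genotypes. Their sums were 4190 to 11335 CPM in ligated against 954 to 2693 CPM in naive libraries, again lowest among ligated libraries in CybbKO ligated replicate 2.

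Serpinf1 (ENSMUSG00000000753, chr11:75409769-75422701), pigment epithelium-derived factor, a secreted anti-angiogenic glycoprotein of fibroblasts without inhibitory activity, had 46.5, 72.4 and 92.9 CPM in WT naive and 91.8, 113 and 110 in WT ligated. It had 66.5, 33.3 and 50.3 CPM in the naive libraries labelled CybbKO and 170, 70.8 and 118 in the ligated ones. The WT groups overlapped by 1 library and the CybbKO groups did not overlap. The averaged rise was 1.88-fold (log2 0.91, standard error 0.23, edgeR adjusted p = 0.0156), with 0.57 in WT (adjusted p = 0.366) and 1.26 in the libraries labelled CybbKO (adjusted p = 0.0297). The averaged call held in 12 of 12 leave-one-out fits, and the CybbKO call in 2 of 6, being lost without CybbKO ligated replicate 1 or 3 or CybbKO naive replicate 2 or 3 (log2 0.92 to 1.52 over the 6 fits, adjusted p up to 0.138).

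Serping1 (ENSMUSG00000023224, chr2:84765387-84775444), the C1 inhibitor that restrains complement and kallikrein, had 86.3, 97.7 and 115 CPM in WT naive and 87.6, 135 and 144 in WT ligated. It had 97.4, 70.8 and 97.0 CPM in the naive libraries labelled CybbKO and 252, 164 and 162 in the ligated ones. The CybbKO ligated group lay above all other libraries, and the WT groups overlapped. The averaged rise was 1.63-fold (log2 0.71, standard error 0.16, edgeR adjusted p = 0.00836), with 0.29 in WT (adjusted p = 0.512) and 1.13 in the libraries labelled CybbKO (adjusted p = 0.00871). Fibroblast genes, in tissue where Serping1, Serpinf1, Serpinh1 and Serpine2 are known stromal products, summed to 4585 to 12382 CPM in ligated and 1709 to 3470 CPM in naive libraries. Of these 8 genes, 7 were called higher averaged over the genotypes, 3 within WT and 7 within the libraries labelled CybbKO. Of all genes tested, 14.7%, 2.31% and 9.95% were. The part of fibroblast content in the rise of these 4 serpins was not tested. All 6 endothelial genes (3 within WT, 5 within the libraries labelled CybbKO) were also called higher averaged over the genotypes. So were all 10 monocyte and macrophage genes (2 within WT, 10 within the libraries labelled CybbKO). The shares of all genes tested were again 14.7% averaged, 2.31% within WT and 9.95% within the libraries labelled CybbKO. Of these markers Ly6c2 passed the filter through the ligated libraries.

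**Figure D4:**
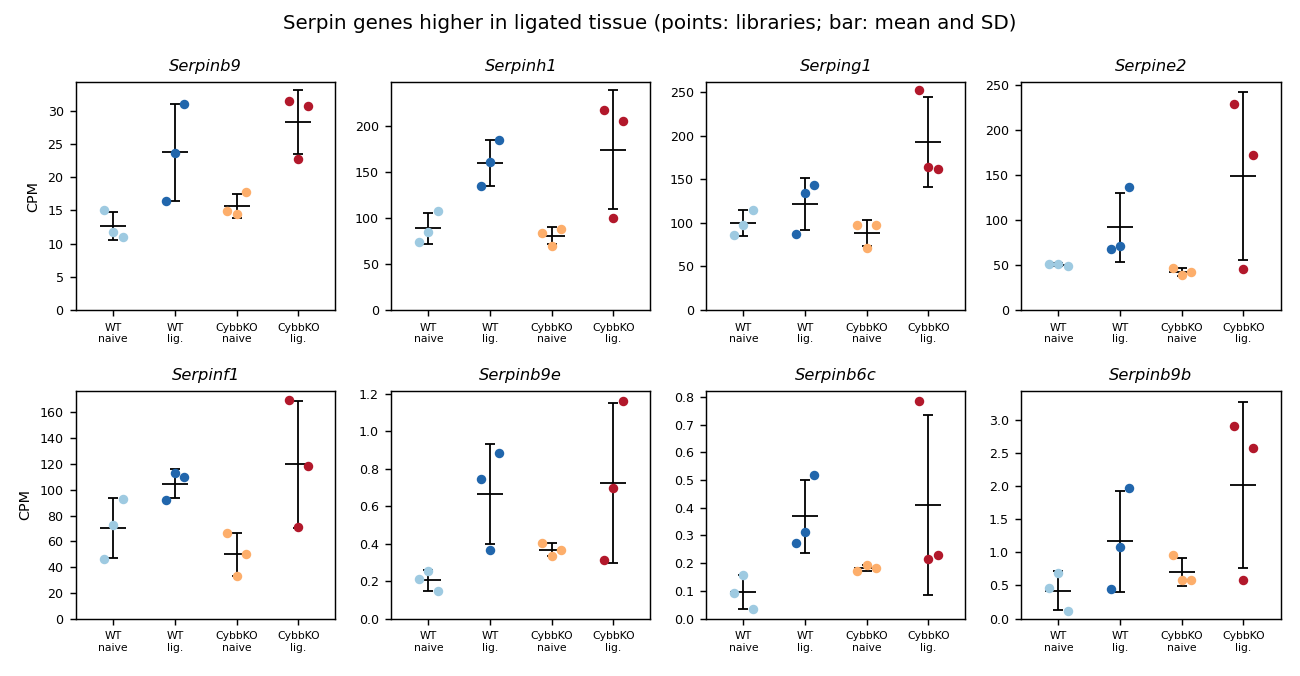
CPM in each library for the 8 serpin genes that were higher in ligated tissue, by group, with the mean and SD of 3 libraries. CybbKO ligated replicate 2 is the lowest ligated library of its group for Serpinb9, Serpinh1, Serpine2, Serpinf1, Serpinb6c and Serpinb9b.

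The largest fitted fall among the 34 tested serpins was that of Serpina11 (ENSMUSG00000063232, chr12:103980243-103989957). It had 4.60, 7.59 and 3.32 CPM in WT naive and 1.42, 0.733 and 0.623 in WT ligated. It had 5.89, 4.69 and 4.61 CPM in the naive libraries labelled CybbKO and 0.914, 0.829 and 0.936 in the ligated ones. Every ligated library lay below every naive one. The averaged fall was 5.61-fold (log2 -2.49, standard error 0.26, edgeR adjusted p = 0.000229), and the log2 fold changes were -2.48 in WT (adjusted p = 0.00926) and -2.50 in the libraries labelled CybbKO (adjusted p = 0.00245).

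Serpina9 (ENSMUSG00000058260, chr12:103994743-104013755), which lies next to Serpina11 and is known as centerin from germinal centre B cells, was far more abundant. It had 395, 505 and 367 CPM in WT naive, 344, 265 and 199 in WT ligated, 556, 433 and 376 in the naive libraries labelled CybbKO and 267, 347 and 247 in the ligated ones. The averaged fall was 1.58-fold (log2 -0.66, standard error 0.16, edgeR adjusted p = 0.0111). The next gene of the cluster, Serpina12 (vaspin), gave -0.52 (95% interval -1.004 to -0.03, adjusted p = 0.115). Of the 4 tested genes of this chromosome 12 cluster, 3 fell averaged over the genotypes, where 9.66% of all genes tested did. Within WT 1 fell and within the libraries labelled CybbKO 2 did, beside 0.884% and 3.04% of all genes tested. Serpini1 (neuroserpin) gave -0.10 (95% interval -0.67 to 0.48).

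The genotype comparisons asked whether the serpin genes differ between Cybb-/- and WT mice. In ligated tissue 0 of 34 genes were called (edgeR), where 0.00665% of all genes were, Cybb alone. An unadjusted p under 0.05 was reached by 2 serpin genes, Serping1 among them, beside 3.34% of all genes tested, and DESeq2 called 0, with 2 at an unadjusted p under 0.05. Serping1 was higher in the libraries labelled CybbKO by 0.66 on the log2 scale (95% interval 0.17 to 1.16, unadjusted p = 0.0127, edgeR adjusted p = 1.00). Further estimates were those of Serpinb7 at -0.39 (95% interval -0.84 to 0.06), Serpinc1 at -0.79 (-1.73 to 0.15) and Serpine2 at 0.70 (-0.26 to 1.65), with intervals that include 0. The Serpine2 estimate was 0.25 without CybbKO ligated replicate 1, 1.13 without CybbKO ligated replicate 2 and 1.10 without WT ligated replicate 3. That of Serping1 ran from 0.42 to 0.80 over the 6 leave-one-out fits, lowest without CybbKO ligated replicate 1. That of Serpinb7 ran from -0.60 to -0.25, nearest 0 without CybbKO ligated replicate 3.

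In naive tissue 0 of 34 genes were called by edgeR or DESeq2, and 0 had an unadjusted p under 0.05 in either. In edgeR 0.00665% of all genes were called, again Cybb alone, and 2.03% had an unadjusted p under 0.05. The smallest p values belonged to Serpind1, with a log2 difference of -1.65 (95% interval -3.59 to 0.29), Serpinb1b, with 0.38 (-0.11 to 0.87), Serpinb9e, with 0.83 (-0.36 to 2.01), Serpinf1, with -0.50 (-1.22 to 0.23), and Serpinb13, with 0.36 (-0.17 to 0.89). Without WT naive replicate 3 the Serpinf1 estimate was -0.25 and that of Serpinb13 0.15. Serpinf1 was at -0.27 without CybbKO naive replicate 2 and -0.76 without CybbKO naive replicate 1, and Serpinb13 at 0.65 without WT naive replicate 2. Of these 5 genes, Serpind1 and Serpinb9e were rare transcripts, at no more than 0.752 and 1.16 CPM in any library.

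The difference of the ligature effect between the genotypes was called for 0 of 34 serpin genes, and for 0% of all genes tested. At an unadjusted p under 0.05 there were 2 in edgeR, beside 2.27% of all genes tested, and 2 in DESeq2, which also called 0. Serping1 rose by 0.84 more on the log2 scale in the libraries labelled CybbKO (95% interval 0.14 to 1.53, unadjusted p = 0.0226, edgeR adjusted p = 1.00). Further estimates were those of Serpinf2 at -0.91 (-1.997 to 0.17), Serpine2 at 0.96 (-0.39 to 2.30) and Serpinf1 at 0.69 (-0.33 to 1.71). Without CybbKO ligated replicate 1 the Serpine2 estimate was 0.50 and that of Serpinf1 0.35, and Serpinf1 was at 0.44 without WT naive replicate 3 and 0.46 without CybbKO naive replicate 2. More serpins were called in the libraries labelled CybbKO than in WT, but the difference between the genotypes was tested for each of the 34 genes and edgeR called 0.

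The proteases that serpins trap were read from a fixed list of 33, of which 25 were tested, 9 rose and 4 fell averaged over the genotypes, beside 14.7% and 9.66% of all genes tested. Within WT 2 rose and 1 fell, where 2.31% and 0.884% of all genes tested did. Within the libraries labelled CybbKO 8 rose and 3 fell, where 9.95% and 3.04% did. The fold changes given here are averaged over the genotypes. The genes that rose were Plau (urokinase, a target of Serpine2 and Serpinb2) by 0.57 on the log2 scale, the complement proteases C1ra by 0.96, C1s1 by 1.04 and Masp1 by 0.97, which Serping1 inhibits, the cathepsins Ctsk by 2.45 and Ctss by 1.53, Gzmb by 1.84, F10 by 3.02 and Htra1 by 0.63. Those that fell were the epithelial kallikreins Klk5, with a log2 fold change of -1.05, Klk6 with -0.94 and Klk10 with -0.64, and tissue factor F3 with -0.62. F10, coagulation factor X, was rare, at up to 0.669 CPM, and reached the filter level in 4 libraries, all ligated, so it could be tested only where it was higher in ligated tissue. Elane, Prtn3 and Ctsg encode neutrophil proteases that some members of the Serpina1 and Serpinb1 families, such as Serpinb1a, inhibit. They did not pass the filter and stayed at or below 0.588 CPM in every library. These 3 and plasminogen were named after their values were seen. Plg (plasminogen) was also near 0, at no more than 0.0305 CPM. RNA counts do not measure protein, and the amounts of these 4 proteases in the gum were not tested.

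Of 13 genes of the plasminogen system and of serpin cofactors and receptors, 12 were tested. Averaged over the genotypes 4 rose and 0 fell, beside 14.7% and 9.66% of all genes tested. Within WT 0 were called, where 2.31% of all genes rose and 0.884% fell. Within the libraries labelled CybbKO 3 rose, where 9.95% of all genes did. The 4 that rose averaged over the genotypes were Plau, its receptor Plaur by 1.62 on the log2 scale, thrombomodulin Thbd by 0.46 and perlecan Hspg2 by 0.76. The abundant members of the list, Anxa2 and Sdc1, gave -0.19 and 0.02. Among 16 protease inhibitors of other families 5 rose and 1 fell averaged over the genotypes, beside 14.7% and 9.66% of all genes tested. Of these inhibitors 2 rose within WT and 4 within the libraries labelled CybbKO, beside 2.31% and 9.95% of all genes. Tfpi2 rose by 3.66, A2m by 2.58, Stfa1 by 1.75, Tfpi by 1.40 and BC100530 by 1.24 on the log2 scale, with Tfpi2 at the filter level only in ligated libraries and A2m in 6 ligated and 1 naive, so that these 2 passed the filter through the ligated groups, and Slpi, the secretory leukocyte protease inhibitor of mucosal epithelium, fell by 0.59 averaged over the genotypes. Its means of 3 libraries were 2112 CPM in WT naive and 1413 in WT ligated, and 2100 and 1391 CPM in the naive and ligated libraries labelled CybbKO, and it was not called within either genotype. Slpi and Spink5 were the most abundant of that list, and Spink5 gave -0.17. None of the genes in these lists was called in either genotype comparison or for the difference between the ligature effects.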

How the data were processed

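The authors deposited raw counts of reads per gene (Ensembl mouse identifiers, GRCm38) from stranded poly-A RNA-seq of gingival tissue of 3 mice per group. The study's methods name STAR and featureCounts, counting on the reverse strand, while the submitters' processing notes list FastQC 0.10.1 and HTSeq 0.10.0, so the counter is uncertain. Of 21965 identifiers, 21939 had a GENCODE M21 symbol. Members, roles and gene lists were chosen with earlier results of these data known.

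Counts were normalized by TMM and tested with edgeR 4.0.16 (R 4.3.3), quasi-likelihood, in 1 fit of the 12 libraries with a mean per group. Genes kept by filterByExpr (15046) were tested, and p-values were adjusted by Benjamini-Hochberg over all of them, with a threshold of 0.05. DESeq2 1.42.0 was an alternative. Depth ran from 27958819 to 42613423 counts per library. CPM per kb used the summed exon length. Library values are given for members called in any comparison, the 6 most abundant, and, where fewer than 5 were called, the 5 with the smallest p have their estimates given. In the other lists, called genes and the 2 most abundant could be named. Other normalizations, filters, a robust fit, fits of the compared groups alone, a replicate block and leaving out each library were the alternatives. Nothing beyond the group matching ties libraries to litters or days. The values of 1 tested member are not reported here, though it is counted in all totals.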

Additional observations from a re-analysis of the deposited data

How the results depend on the processing

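In WT, DESeq2 called 5 serpin genes where edgeR called 2, and leaving out 1 library gave 0 to 2. In the libraries labelled CybbKO edgeR called 10, and leaving out 1 library gave 4 to 14. Averaged over the genotypes it called 14, and leaving out 1 library gave 11 to 18. The cause was not tested, beyond there being fewer samples. The genotype comparisons and the difference of the ligature effects gave 0 calls under every alternative run. Of 701 recomputed values of 44 gene results, 644 kept their direction and side of the threshold, 53 missed it, 4 newly passed it and 0 changed direction. Scaling by library size alone moved the median of all genes by 0.11 on the log2 scale in WT and by 0.096 in the averaged comparison. With the replicate number as a block the counts were 2 in WT, 11 in CybbKO and 12 averaged. Deviations of same-numbered libraries from their group means correlated at -0.23 to 0.28 and of different-numbered ones at -0.34 to 0.43. With 3 libraries per group, these values cannot decide whether same-numbered libraries shared a day or litter. There were 3 libraries per group, the biological coefficient of variation was 0.24, and the intervals given with the genotype comparisons show the sizes that these data leave possible.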
